A study of Caenorhabditis elegans with 12 samples.

Results

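The mitochondrial respiratory chain and the ATP synthase were examined through 28 nuclear genes of Caenorhabditis elegans, out of 14352 genes with a mean of at least 10 normalised counts and 45327 genes in the deposited table. Members were taken by gene symbol: every symbol starting with nuo-, nduo-, ndfl-, ctc-, ctb-, cco-, cox-, atp-, asb-, asg-, ucr- or cyc-, together with gas-1, isp-1, lpd-5, sdha-1, sdhb-1 and mev-1, with a mean of at least 10 over the 12 libraries. These symbols took 30 genes, of which cyc-2.2, another cytochrome c gene, fell below the minimum with a mean of 3.15, and ctb-1, the cytochrome b gene of the mitochondrial genome, had 0 reads in every library. The 14 rows of the mitochondrial genome all had 0 reads, and the nduo-, ndfl- and ctc- symbols had no row, so the subunits encoded by mitochondrial DNA were not measured here and all 28 members lie on nuclear chromosomes. The member with the lowest mean was ucr-2.3 at 802 normalised counts, far from the minimum.

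The respiratory chain sits in the inner mitochondrial membrane and passes electrons from NADH and succinate to oxygen. Complex I oxidises NADH and complex II oxidises succinate, both hand electrons to coenzyme Q, complex III passes them to cytochrome c, and complex IV reduces oxygen. Complexes I, III and IV pump protons, and the ATP synthase, also called complex V, makes ATP from the returning protons. In worms, mutants and RNAi knockdowns of several of these subunits are known for changed life span, among them isp-1, nuo-6, cco-1, gas-1 and mev-1.

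RNA was sequenced from whole worms at the fourth larval stage (L4) grown at 25°C, in 4 groups of 3 libraries each. The groups were wrn-1(gk99) grown with 10 mM vitamin C, wrn-1(gk99) without it (0 mM), the wild type N2 grown with 10 mM vitamin C, and N2 without it (0 mM). The strain wrn-1(gk99) carries a deletion in the worm homologue of the gene mutated in human Werner syndrome, a RecQ-type helicase, in every cell, and was outcrossed to N2. Mutants developed more slowly, so animals were harvested by vulva and gonad stage and not by hours, and strain and hours of growth cannot be told apart. In RNA of whole worms, fewer cells of a type and less RNA per cell cannot be told apart either. Levels below are normalised counts, that is, reads per gene divided by the size factor of the library. Fold changes are on the log2(normalised count + 1) scale with their standard error, and a gene was called changed at a limma adjusted p (Benjamini-Hochberg over 14352 genes) under 0.01, which measures the spread between these libraries.

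The libraries held 13446257 to 34234211 reads on genes, and every member had at least 409.8 normalised counts in each. The 20 most abundant genes took 16.7 to 17.3% of normalised counts in untreated N2 and 7.60 to 8.12% in untreated wrn-1(gk99). The wrn-1 gene itself (F18C5.2, chromosome II) had 854, 789 and 699.9 normalised counts in untreated wrn-1(gk99), against 516, 499 and 502 in untreated N2, and a count over the whole gene does not check a deletion of part of it. One library stood apart from its label. Over all genes tested, the library labelled N2 vitC replicate 3 correlated at r = 0.994 to 0.996 with the 3 vitamin C treated wrn-1(gk99) libraries and at r = 0.960 and 0.961 with the other 2 vitamin C treated N2 libraries. The 4 groups share 1 estimate of the spread, and its place among the treated mutants enters that estimate. Counts of called members are therefore given with it and without it, as are the members described whose call it changes.

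Per kilobase of exon (exon lengths from the WBcel235 annotation), the levels of the members spanned a wide range. In untreated wrn-1(gk99) cyc-2.1, which encodes the cytochrome c that carries electrons between complexes III and IV, was highest at 25608 normalised counts per kilobase, against 20635 in untreated N2. The next was atp-2, the catalytic beta subunit of the ATP synthase, at 21966 in wrn-1(gk99) and 13910.4 in N2. The lowest was ucr-2.3, one of 3 genes for a core protein of complex III, at 725 in wrn-1(gk99) and 552 in N2.

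The first comparison asked how untreated wrn-1(gk99) worms differ from untreated N2 worms. Of the 28 genes, 14 were called higher in wrn-1(gk99), where 20.4% of all genes tested were, and 0 were called lower, where 23.0% were (limma). On the recovered reads, edgeR called 13 higher and DESeq2 15, and both called 0 lower. Over all genes edgeR called 6280 in either direction and DESeq2 6898, against 6226 by limma. The members' median log2 fold change was 0.31, against 0.01 over all genes, with 27 members above 0 and 1 below. In 23 members all 3 wrn-1(gk99) libraries lay above all 3 N2 libraries (38.2% of all genes did), and in 0 members below (37.6%). The changes were small: atp-2 had the largest ratio of means, 1.58, and 0 members reached a ratio of 2.00, so 0 met the stricter criteria of a 2.00-fold change and a minimum group mean, which 10.8% of genes met. Together the 28 genes took 1.03 to 1.06% of normalised counts in untreated wrn-1(gk99) and 0.692 to 0.726% in untreated N2. Their summed counts were 197088 to 206567 and 148184 to 159265, and the totals over all genes were lower in untreated wrn-1(gk99), which also raises its share.

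**Figure D1:**
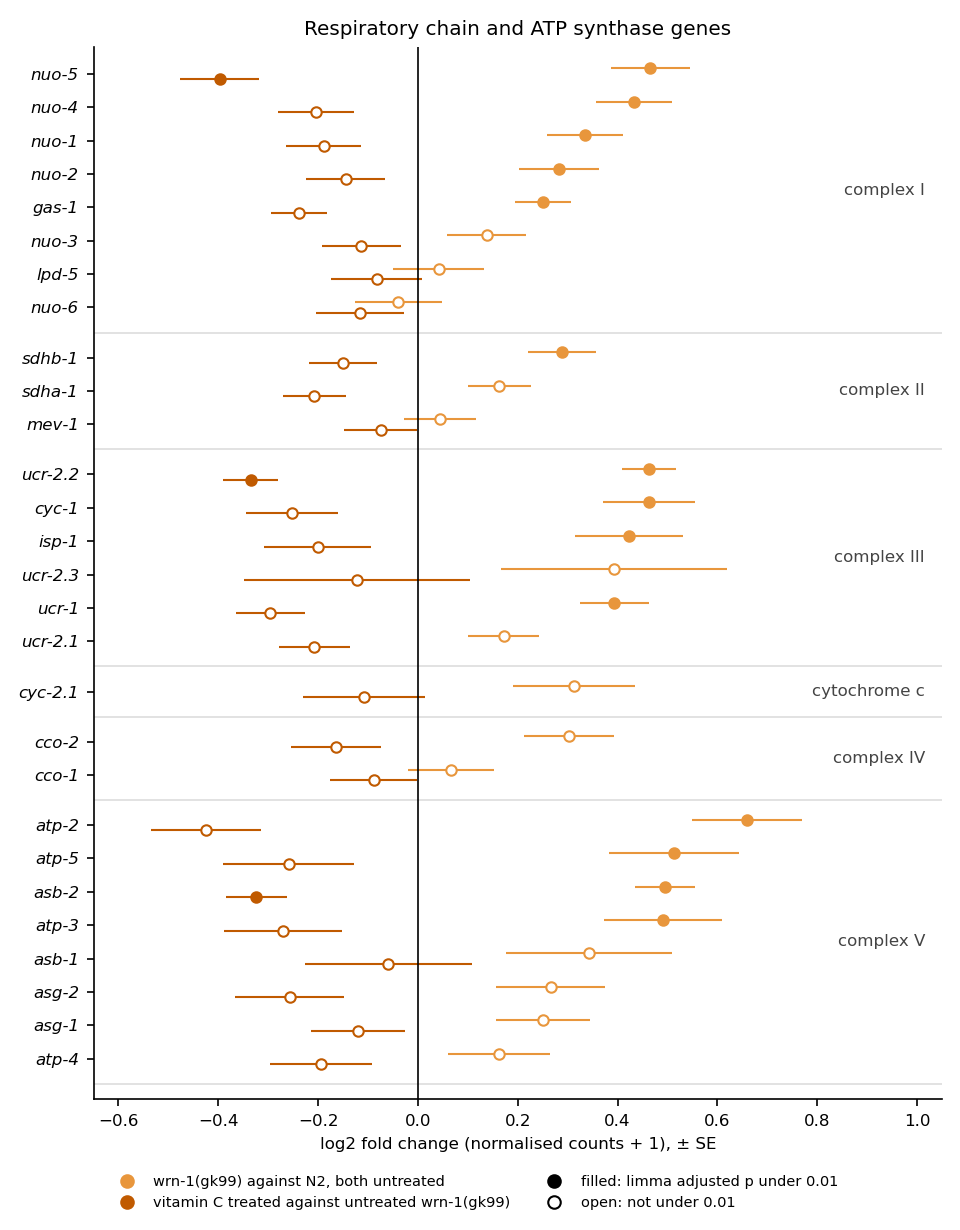
Log2 fold change with its standard error (x axis) of each of the 28 genes (y axis, grouped by complex), for untreated wrn-1(gk99) against untreated N2 (light) and for vitamin C treated against untreated wrn-1(gk99) (dark). Filled points had a limma adjusted p under 0.01. In the strain comparison 27 points lie above 0, and in the vitamin C comparison all 28 lie below it.

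The ATP synthase genes held the largest differences, with 4 of 8 called higher and a median log2 fold change of 0.42. The beta subunit gene atp-2 (chromosome III) had 42350.3, 41820.3 and 42944 normalised counts in untreated wrn-1(gk99), against 26599.6, 26897 and 27003 in untreated N2. Every mutant library lay above every wild type library, and the log2 fold change was 0.66 ± 0.11 (limma adjusted p = 0.000362). For atp-5, a stalk subunit, the levels were 10446, 10414 and 11449 in wrn-1(gk99) and 7012, 7251 and 8426 in N2. Its groups did not overlap and its log2 fold change was 0.51 ± 0.13 (limma adjusted p = 0.00553). The gene atp-3, for the subunit that joins the stalk to the catalytic head, was higher by 0.49 ± 0.12 (limma adjusted p = 0.00398). The remaining ATP synthase genes that were not called, atp-4, asg-1, asg-2 and asb-1, had log2 fold changes of 0.16 to 0.34.

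Subunit b, part of the peripheral stalk, has 2 genes in the worm: asb-1, known for its role in the germ line, and asb-2. The gene asb-2 had 8757, 8855 and 8512 normalised counts in untreated wrn-1(gk99), against 5969.8, 6316 and 6253 in untreated N2. It was called higher, with a log2 fold change of 0.49 ± 0.06 (limma adjusted p = 3.72e-05). For asb-1 the levels were 2142, 2149.8 and 2225 in wrn-1(gk99) and 1671, 1648 and 1822 in N2. These groups did not overlap either, yet the log2 fold change of 0.34 ± 0.17 did not pass (limma adjusted p = 0.0961), and without the library labelled N2 vitC replicate 3 it was 0.34 ± 0.05 (limma adjusted p = 4.86e-05). The ratio of asb-1 to asb-2 within a library was 0.243 to 0.261 in untreated wrn-1(gk99) and 0.261 to 0.291 in untreated N2, ranges that overlap slightly.

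Subunit g, a small membrane subunit, is also encoded by more than 1 gene, asg-1 and asg-2. The gene asg-1 had 2152, 2110.1 and 2259.6 normalised counts in untreated wrn-1(gk99), against 1721, 1878 and 1883 in untreated N2. For asg-2 the levels were 3564, 3463 and 4129.5 in wrn-1(gk99) and 2856, 3019 and 3399.8 in N2. Neither overlapped between the strains, and neither passed, with limma adjusted p = 0.0382 for asg-1 and 0.0539 for asg-2. Without the library labelled N2 vitC replicate 3 both were called higher (limma adjusted p = 0.000773 and 0.00736). In that fit 7 of 8 ATP synthase genes were called higher, where 31.7% of all genes were.

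In complex III, the cytochrome bc1 complex, 4 of 6 genes were called higher and the median was 0.41. The gene isp-1, for the Rieske iron-sulphur protein, had 7552, 7742 and 8444 normalised counts in untreated wrn-1(gk99), against 5578, 5852 and 6281 in untreated N2. Its log2 fold change was 0.42 ± 0.11 (limma adjusted p = 0.00547), with no overlap between the strains. The cytochrome c1 gene cyc-1 was higher by 0.46 ± 0.09 and the core protein gene ucr-1 by 0.39 ± 0.07 (limma adjusted p = 0.00119 and 0.000513). 

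The other core protein has 3 genes, with different values. The gene ucr-2.2 (chromosome X) had 3177, 3070.4 and 3198 normalised counts in untreated wrn-1(gk99), against 2229.9, 2284 and 2338 in untreated N2. It had the smallest adjusted p of all members, 2.80e-05 (limma), at a log2 fold change of 0.46 ± 0.05. Its paralog ucr-2.1 had 4744, 4711 and 5112 in wrn-1(gk99) and 4096, 4365 and 4470.1 in N2. For ucr-2.1 the difference of 0.17 ± 0.07 did not pass (limma adjusted p = 0.0556), and it passed with N2 vitC replicate 3 left out (limma adjusted p = 0.00762). The least expressed, ucr-2.3, had 988, 972 and 979 in wrn-1(gk99) and 713, 768 and 756 in N2. Its log2 fold change of 0.39 ± 0.23 carried the largest error of all members (limma adjusted p = 0.153), and without the library labelled N2 vitC replicate 3 it was 0.39 ± 0.05 (limma adjusted p = 7.00e-06). Within a library the ratio of ucr-2.2 to ucr-2.1 was 0.626 to 0.670 in untreated wrn-1(gk99) and 0.523 to 0.544 in untreated N2, without overlap.

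In complex I, the NADH dehydrogenase, 5 of 8 genes were called higher and the median was 0.27. The gene nuo-5, for the largest core subunit, had 5481, 5518 and 5033 normalised counts in untreated wrn-1(gk99), against 3806, 3952 and 3843 in untreated N2. Its log2 fold change was 0.47 ± 0.08 (limma adjusted p = 0.00042). The gene gas-1, a core subunit known for mutants that are sensitive to volatile anaesthetics, had 4489.8, 4619 and 4589 in wrn-1(gk99) and 3968, 3814 and 3737 in N2. It differed by 0.25 ± 0.06 (limma adjusted p = 0.0026), the smallest change among the called members. The core subunit gene nuo-2 had 3349.9, 3292 and 3344 in wrn-1(gk99) and 2762, 2733 and 2711 in N2, a log2 fold change of 0.28 ± 0.08 (limma adjusted p = 0.00968). The others called were nuo-1, for the subunit that takes electrons from NADH, at 0.33, and the accessory subunit nuo-4 at 0.43. The accessory subunits nuo-3, lpd-5 and nuo-6 had log2 fold changes of 0.14, 0.04 and -0.04 and were not called, and nuo-6 was the member below 0. For nuo-3, 783 bases are shared on the same strand with another annotated gene, so its count is uncertain.

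Complex II, succinate dehydrogenase, had 1 of 3 genes called. The iron-sulphur subunit gene sdhb-1 had 3992, 3975 and 4354 normalised counts in untreated wrn-1(gk99), against 3321, 3252 and 3508 in untreated N2. Its log2 fold change was 0.29 ± 0.07 (limma adjusted p = 0.00356). The flavoprotein gene sdha-1 had 4093, 4075 and 4187 in wrn-1(gk99) and 3622, 3775 and 3639.6 in N2, a log2 fold change of 0.16 ± 0.06 (limma adjusted p = 0.0426). It was called once N2 vitC replicate 3 was left out (limma adjusted p = 0.00588). That made 2 of 3 in complex II, where 31.7% of all genes were called higher. The cytochrome b anchor gene mev-1, known for mutants sensitive to methyl viologen, had 2449.8, 2467 and 2402 in wrn-1(gk99) and 2270.2, 2196 and 2656 in N2. The mev-1 ranges overlapped, with a log2 fold change of 0.04 ± 0.07 (limma adjusted p = 0.617).

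In cytochrome c and complex IV, cytochrome c oxidase, limma called none of the genes cyc-2.1, cco-1 and cco-2. Over all 28 members, 20 had a limma p under 0.05 before adjustment, cyc-2.1 and cco-2 among them. Of all 14352 genes tested, 9064 had such a p. The gene cyc-2.1 had 13703, 13694 and 14779 normalised counts in untreated wrn-1(gk99), against 10795, 10812 and 12379 in untreated N2, without overlap and with a log2 fold change of 0.31 ± 0.12 (limma adjusted p = 0.0439). The other cytochrome c gene cyc-2.2, which is no member, had 8.46, 8.91 and 5.96 in wrn-1(gk99) and 2.69, 0 and 1.07 in N2. The oxidase genes cco-2 and cco-1 had log2 fold changes of 0.30 ± 0.09 and 0.07 ± 0.09 (limma adjusted p = 0.0134 and 0.527). Leaving out N2 vitC replicate 3 brought cyc-2.1 (limma adjusted p = 0.000392) and cco-2 (5.16e-05) past the threshold but not cco-1 (0.361).

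The count of called genes in the strain comparison depended on single libraries. It was 22 without the library labelled N2 vitC replicate 3, where 31.7% of all genes were called higher, and those 22 held all 14. It was 8 without N2 replicate 1, 7 without N2 replicate 2, 9 without wrn-1(gk99) replicate 2 and 8 without wrn-1(gk99) replicate 3. Calls over all genes also fell in these fits, to 4910, 4906, 4802 and 4834 in the same order, against 6226 with all libraries. The members' median stayed between 0.29 and 0.34 over all 12 omissions. Scaling to equal totals moved the median of all genes to 0.17 and that of the members to 0.47, with all 28 members above 0 and 18 called higher. Over all genes 4069 were called higher under that scaling, against 2922 as deposited.

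**Figure D2:**
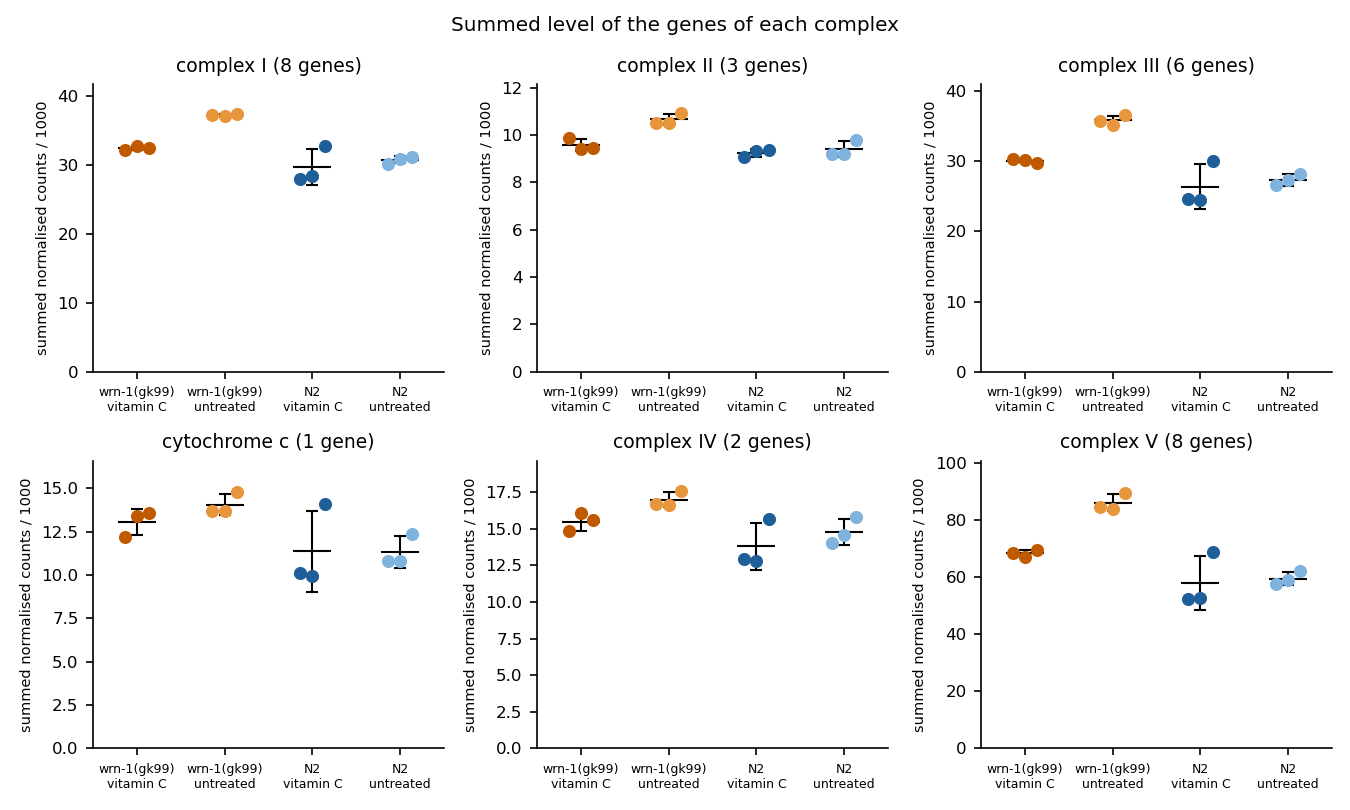
Summed normalised counts divided by 1000 (y axis, from 0) of the genes of each complex in each library (points), with the group mean and SD (line and bars, n = 3), for vitamin C treated and untreated wrn-1(gk99) and vitamin C treated and untreated N2. Complex V reached 83868 to 89356 in untreated wrn-1(gk99), above the other groups, and in vitamin C treated N2 1 library lies apart from the other 2 in every panel but that of complex II.

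The summed levels of the complexes also lay apart between the strains. The 8 ATP synthase genes summed to 85944 ± 2979 normalised counts in untreated wrn-1(gk99) and 59400.0 ± 2319 in untreated N2 (SD, n = 3 each). The 8 complex I genes summed to 37272 ± 117 in wrn-1(gk99) and 30760.0 ± 506 in N2. For complex III, with 6 genes, the sums were 35203 to 36529.6 in the mutant against 26555 to 28171 in N2. For complex II the sums were 10665 ± 241 in wrn-1(gk99) and 9413 ± 338 in N2. In all 4 the mutant libraries lay above the wild type libraries.

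The second comparison asked what growth on vitamin C changed in wrn-1(gk99). It shares the untreated wrn-1(gk99) libraries with the first, so the direction of one is not independent of the other. All 28 members had a negative log2 fold change, with a median of -0.20 against -0.01 over all genes. Of them, 3 were called lower with vitamin C, nuo-5, ucr-2.2 and asb-2, where 4.24% of all genes were, and 0 were called higher, where 6.05% were (limma). In 24 members all 3 treated libraries lay below all 3 untreated ones (26.5% of all genes did), and in 0 above (24.2%). On the recovered reads edgeR called 3 lower and DESeq2 7, and both called 0 higher. Over all genes edgeR called 1531 in either direction and DESeq2 2219, against 1476 by limma. A limma p under 0.05 before adjustment was found for 14 members and for 4487 of all 14352 genes tested. The 2.00-fold criteria that 1.80% of genes met were met by 0 members.

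The gene nuo-5 had 4596, 3807 and 3812 normalised counts in vitamin C treated wrn-1(gk99), against 5481, 5518 and 5033 in untreated wrn-1(gk99), a log2 fold change of -0.40 ± 0.08 (limma adjusted p = 0.00443). For ucr-2.2 the levels were 2449.8, 2559 and 2477 with vitamin C and 3177, 3070.4 and 3198 without, a log2 fold change of -0.34 ± 0.05 (limma adjusted p = 0.00119). For asb-2 they were 7159, 7182 and 6545 with vitamin C and 8757, 8855 and 8512 without, a log2 fold change of -0.32 ± 0.06 (limma adjusted p = 0.00304). In all 3 genes the treated and untreated libraries did not overlap. The largest fall in the means was that of atp-2, with 33232, 29828 and 31742 normalised counts with vitamin C and 42350.3, 41820.3 and 42944 without. Its log2 fold change of -0.42 ± 0.11 lay just outside the threshold (limma adjusted p = 0.0182), as did those of ucr-1 at -0.30 ± 0.07 and gas-1 at -0.24 ± 0.06 (limma adjusted p = 0.0108 and 0.0115). All 3 were called lower when N2 vitC replicate 3 was left out.

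The smallest differences in this comparison were in asb-1, mev-1, lpd-5 and cco-1, at -0.06 to -0.09. The gene asb-1 had 2002, 2146 and 2108 normalised counts in vitamin C treated wrn-1(gk99) and 2142, 2149.8 and 2225 in untreated wrn-1(gk99), with overlap, and mev-1 had 2317, 2339.9 and 2293 with vitamin C and 2449.8, 2467 and 2402 without. The ratio of asb-1 to asb-2 within a library was 0.280 to 0.322 with vitamin C and 0.243 to 0.261 without, ranges that do not overlap. Likewise ucr-2.3 over ucr-2.2 was 0.352 to 0.365 with vitamin C and 0.306 to 0.316 without. Such ratios do not depend on how libraries were scaled, and with 3 libraries against 3 an exact permutation test cannot give a two-sided p below 0.1.

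The number called was 3 with all libraries, and it was 1 without wrn-1(gk99) replicate 1, without wrn-1(gk99) replicate 2 and without wrn-1(gk99) vitC replicate 3. Calls over all genes were 812, 814 and 850 in these fits, against 1476 with all libraries. Without the library labelled N2 vitC replicate 3, which belongs to neither group, 14 members were called lower, where 14.5% of all genes were, atp-2 among them (limma adjusted p = 1.60e-05), and all 3 named above were among the 14. The median over the members stayed between -0.22 and -0.16 when any library was left out.

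The third comparison asked what vitamin C changed in N2. With all 3 treated libraries, 0 members were called lower (7.48% of all genes were) and 0 higher (5.26%) by limma. On the recovered reads edgeR and DESeq2 also called 0 members, and 1849 and 2513 of all genes in either direction. A limma p under 0.05 before adjustment was found for 1 member and for 4996 of all 14352 genes tested. The 2.00-fold criteria that 2.49% of genes met were met by 0 members. The members' median was -0.05 against -0.03 over all genes. Treated and untreated libraries did not overlap for 2 members that were lower with vitamin C (18.8% of all genes) and 1 that was higher (14.0%). The lower ones were nuo-6, with 2327, 2388 and 2907 normalised counts in vitamin C treated N2 and 2974, 3080.5 and 3307 in untreated N2 (limma adjusted p = 0.0275), and mev-1, with 2067, 2180.1 and 2195 in treated N2 and 2270.2, 2196 and 2656 in untreated N2 (limma adjusted p = 0.198). The higher one was ucr-2.2, with 2442, 2389 and 2487 in vitamin C treated N2 and 2229.9, 2284 and 2338 in untreated N2 (limma adjusted p = 0.244).

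**Figure D3:**
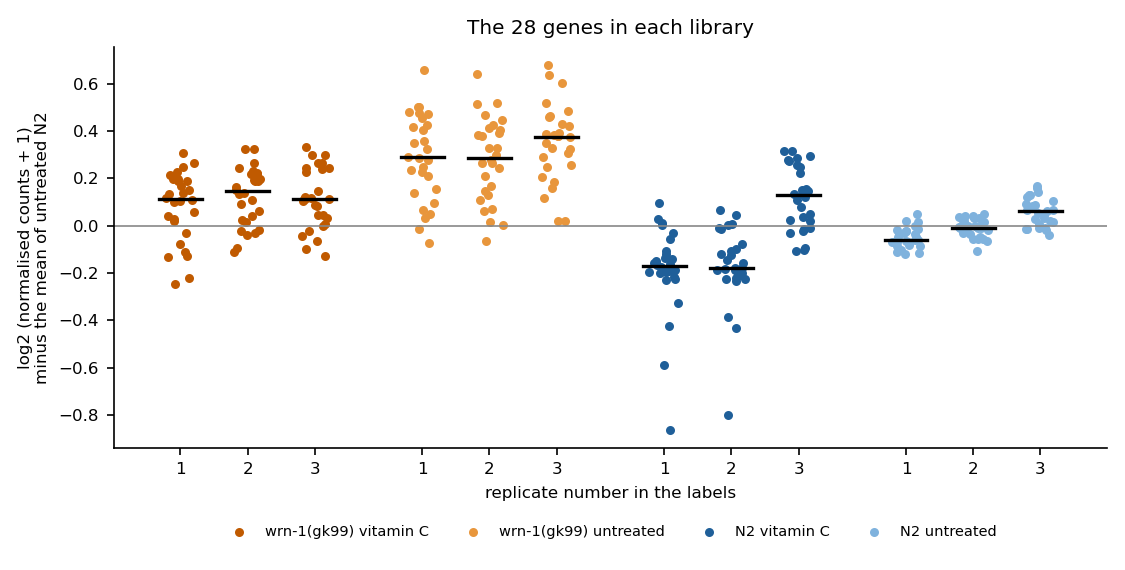
Log2(normalised count + 1) of each of the 28 genes minus its mean in untreated N2 (y axis) in each of the 12 libraries (x axis, by group and replicate number), with the median as a black line. In vitamin C treated N2 the medians were -0.17 and -0.18 in replicates 1 and 2 and 0.13 in replicate 3, beside 0.11 to 0.15 for the treated mutant libraries and 0.29 to 0.38 for the untreated ones.

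The 3 vitamin C treated N2 libraries did not agree among themselves on these genes. Against the mean of untreated N2, the median over the members was -0.17 in replicate 1, -0.18 in replicate 2 and 0.13 in replicate 3. Replicates 1 and 2 each had 24 of 28 members below that mean, and replicate 3 had 21 above it. The 3 vitamin C treated wrn-1(gk99) libraries had medians of 0.11 to 0.15, so that replicate 3 lay among them.

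The paralogs differed in how they split within this group. For ucr-2.3 the levels were 409.8, 427 and 908 normalised counts in vitamin C treated N2 and 713, 768 and 756 in untreated N2. Replicates 1 and 2 were below every untreated library and replicate 3 above every one. For asb-1 they were 1140.0, 1267 and 2072 in vitamin C treated N2 and 1671, 1648 and 1822 in untreated N2, with the same split. By contrast asb-2 had 6300.4, 6217 and 6393 with vitamin C and 5969.8, 6316 and 6253 without, and its treated libraries lay close together.

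Without the library labelled N2 vitC replicate 3, 5 members were called lower with vitamin C in N2 (limma), where 21% of all genes were, so the share of the members was not above that of all genes. They were ucr-2.3 at a log2 fold change of -0.83 ± 0.06, asb-1 at -0.51 ± 0.06, nuo-6 at -0.40 ± 0.06, cco-2 at -0.21 ± 0.05 and ucr-1 at -0.18 ± 0.05. The members' median was then -0.18, with 25 of 28 below 0. This direction also depended on scaling: with all libraries, 5 members had a positive log2 fold change under the deposited scaling and 19 under equal totals, where the median of all genes was 0.07 and that of the members 0.06.

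**Figure D4:**
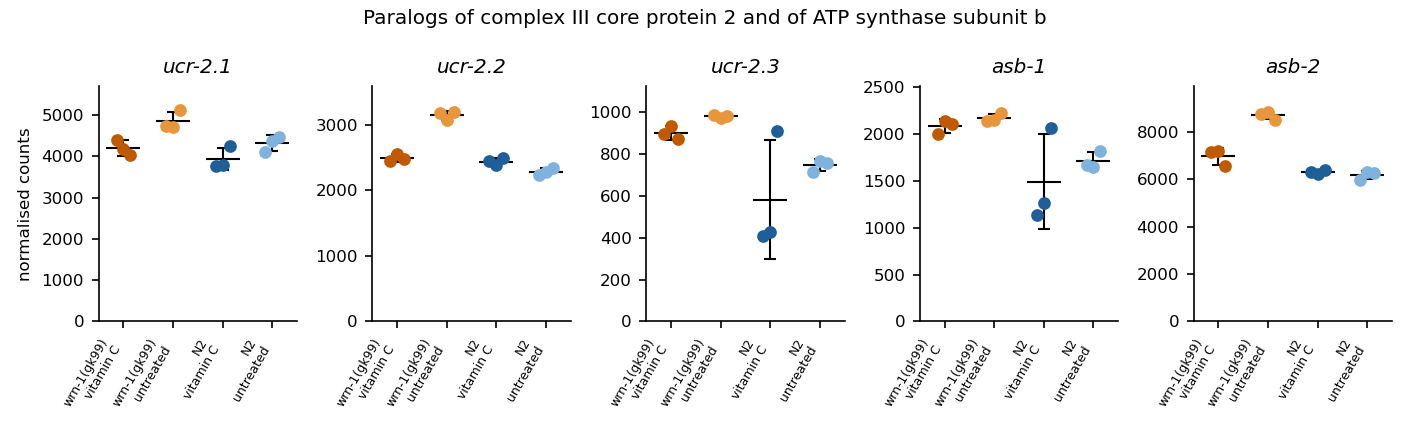
Normalised counts (y axis, from 0) of the 3 genes for complex III core protein 2 (ucr-2.1, ucr-2.2, ucr-2.3) and the 2 genes for ATP synthase subunit b (asb-1, asb-2) in each library (points), with group mean and SD (n = 3), for vitamin C treated and untreated wrn-1(gk99) and vitamin C treated and untreated N2. In vitamin C treated N2, ucr-2.3 and asb-1 split into 2 low libraries and 1 high one (410, 427 and 908 for ucr-2.3), while ucr-2.2 and asb-2 do not.

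The fourth comparison set vitamin C treated wrn-1(gk99) against untreated N2, to ask how far treated mutants lie from the wild type. Of the members 0 were called higher (8.40% of all genes were) and 0 lower (13.7%) by limma, edgeR called 0 and DESeq2 called 1. Among all genes edgeR called 3111 in either direction and DESeq2 4136, against 3178 by limma. Before adjustment 4 members had a limma p under 0.05, as had 7340 of all 14352 genes tested. The median was 0.13 against 0.01 over all genes, with 21 members above 0. Under equal totals the median of all genes was 0.19 and that of the members 0.32, with 4 members and 2501 of all genes called higher. In 16 members all treated mutant libraries lay above all N2 libraries (31.7% of all genes did) and in 1, nuo-6, below (31.9%), and 0 met the 2.00-fold criteria that 3.70% of genes met. For atp-2 the levels were 33232, 29828 and 31742 normalised counts in vitamin C treated wrn-1(gk99), against 26599.6, 26897 and 27003 in untreated N2, which did not overlap (log2 fold change 0.23 ± 0.11, limma adjusted p = 0.105). For gas-1 they were 3892, 3885 and 3838 in the treated mutant and 3968, 3814 and 3737 in N2, with overlap and a log2 fold change of 0.01 ± 0.06 (limma adjusted p = 0.87).

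Without the library labelled N2 vitC replicate 3, 10 members were called higher in vitamin C treated wrn-1(gk99) than in untreated N2 (limma), where 25.0% of all genes were. Of the complex I genes these were nuo-1, nuo-2 and nuo-4, of complex III isp-1, cyc-1 and ucr-2.3, and of the ATP synthase atp-2, atp-5, asb-1 and asb-2. The largest log2 fold change was that of asb-1, 0.28 ± 0.05 (limma adjusted p = 0.000404).

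The fifth comparison, the interaction, asked whether the response to vitamin C differed between the strains. Of the members 1 was called, ucr-2.2, with a log2 difference of responses (wrn-1(gk99) minus N2) of -0.43 ± 0.08 (limma adjusted p = 0.00169). A negative interaction was called for 5.62% of all genes and a positive one for 9.29%, and 0 members met the 2.00-fold criteria that 6.14% of genes met. In wrn-1(gk99) ucr-2.2 had 2449.8, 2559 and 2477 normalised counts with vitamin C and 3177, 3070.4 and 3198 without. In N2 it had 2442, 2389 and 2487 with vitamin C and 2229.9, 2284 and 2338 without. The treated libraries thus lay below the untreated ones in the mutant and above them in the wild type, where the change was not called. All 6 treated libraries lay between 2389 and 2559. The members' median interaction was -0.16, with 21 below 0 and 7 above.

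With the library labelled N2 vitC replicate 3 left out, the interaction was called for 6 members. It was negative for ucr-2.2 at -0.42 ± 0.06, nuo-5 at -0.36 ± 0.10 and asb-2 at -0.34 ± 0.07, where 15.4% of all genes were called so. It was positive for ucr-2.3 at 0.71 ± 0.08, asb-1 at 0.45 ± 0.08 and nuo-6 at 0.29 ± 0.08, where 18.7% were. The members called in each direction were 10.7%, below those shares. The other paralogs were not called, with ucr-2.1 at -0.02 ± 0.08, asg-1 at 0.09 ± 0.08 and asg-2 at -0.06 ± 0.12. The median over the members was then -0.05. Without wrn-1(gk99) vitC replicate 1, 2 members were called, and 1816 of all genes, against 2139 of all genes with all libraries.

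Transcript length and level, which the choice of genes did not use beyond the minimum, moved with the size of the change. Across the 28 genes in the strain comparison, Spearman's rho of the log2 fold change was 0.45 with exon length and 0.51 with mean level, and for vitamin C in wrn-1(gk99) it was -0.57 with exon length and -0.50 with mean level. Over all 14201 tested genes with an exon length, the rho with length was 0.10 and -0.14 in these comparisons. These are descriptions across genes of the same libraries, and genes are not independent replicates. Of the 16 members with 1000 or more exon bases 11 were called higher in untreated wrn-1(gk99), with a median of 0.39, and of the 12 shorter ones 3 were, with a median of 0.26. The part of length in the result was not tested.

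Other lists of mitochondrial genes also had strain medians above 0. Of 31 further subunits of the same complexes outside the symbols above, 6 were called higher in untreated wrn-1(gk99) and 0 lower, with a median log2 fold change of 0.25. That share, 19.4%, was near the 20.4% of all genes called higher. Among them F58F12.1, the gene for the delta subunit of the ATP synthase, had 4979, 4779 and 4948 normalised counts in wrn-1(gk99), against 3530.3, 3525 and 3471 in N2. With vitamin C it had 4199.8, 4032 and 3714 in wrn-1(gk99). It was the 1 gene of the 31 called lower (log2 fold change -0.30 ± 0.06, limma adjusted p = 0.00458), where 4.24% of all genes were. A set of 14 genes carries one of the prefixes in RefSeq (assembly WBcel235) but not in the deposited table, and was picked after the values had been seen. It shares 5 genes with the list of further subunits, 1 of them called higher. Of the 14, 6 were called higher in untreated wrn-1(gk99), where 20.4% of all genes were. With vitamin C in wrn-1(gk99) 1 of the 14 was called lower, where 4.24% of all genes were. This was atp-1 (H28O16.1), the alpha subunit that pairs with atp-2. It had 38862, 38168 and 39914 in untreated wrn-1(gk99), against 26363, 27220.5 and 26830.2 in untreated N2, and 30939.6, 27711 and 29125 in vitamin C treated wrn-1(gk99).

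The listed genes of coenzyme Q synthesis, assembly, the mitochondrial ribosome and import all lay above 0 between the untreated strains. So did 4 of the 5 nucleotide carrier and uncoupler genes, and 1 lay below 0. For the counts that follow, 20.4% of all genes tested were called higher in untreated wrn-1(gk99) than in untreated N2. Of 8 genes of coenzyme Q synthesis 3 were called higher in untreated wrn-1(gk99) than in N2, led by coq-8 at a log2 fold change of 0.90 ± 0.10, and of 11 assembly and scaffold factors 6 were, led by the prohibitin gene phb-1 at 0.89 ± 0.14. Of 65 mitochondrial ribosomal protein genes, 31 were called higher and 0 lower, all 65 were above 0, and the median was 0.45. With vitamin C in wrn-1(gk99) all 65 were below 0, with a median of -0.21. By limma 0 of them were called, 11 having p under 0.05 before adjustment, as had 4487 of all 14352 genes tested. Of 9 import genes 3 were called higher between the strains, led by tomm-40, the channel of the outer membrane, at 0.87 ± 0.13. Of 5 nucleotide carrier and uncoupler genes 4 were, and the abundant ADP/ATP carrier gene ant-1.1 had 56916, 55929 and 60350.4 normalised counts in wrn-1(gk99), against 38249, 39700.3 and 40182 in N2.

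The mitochondrial chaperone genes had larger strain differences than any member. In untreated wrn-1(gk99) hsp-60 had 6495, 6304 and 7775 normalised counts, against 2063, 2306 and 2543 in untreated N2, a log2 fold change of 1.57 ± 0.21 (limma adjusted p = 6.13e-05). The mitochondrial HSP70 gene hsp-6 had 11048, 10979.6 and 11341 in wrn-1(gk99) and 4194, 4294 and 4212 in N2, a log2 fold change of 1.39 ± 0.16 (limma adjusted p = 1.98e-05). Both genes are known reporters of the mitochondrial unfolded protein response. Of the 10 genes listed for that response 5 were called higher (20.4% of all genes were) and 2 lower (23.0%). The lower ones were ubl-5 at -0.65 ± 0.13, a co-factor in signalling to the nucleus, and haf-1 at -0.59 ± 0.12, a peptide exporter. With vitamin C in wrn-1(gk99), hsp-60 had 3982, 3670.4 and 4595 and was at -0.75 ± 0.21 (limma adjusted p = 0.0247), which did not pass. The genes called in that comparison were atfs-1, the transcription factor of the response, lower at -0.30 ± 0.06, and dve-1, a homeobox factor of the response, higher at 0.35 ± 0.07. With vitamin C in wrn-1(gk99) 4.24% of all genes were called lower and 6.05% higher. Of 3 genes of mitochondrial DNA upkeep, hmg-5, the packaging protein, was called lower in untreated wrn-1(gk99) at -0.47 ± 0.08.

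**Figure D5:**
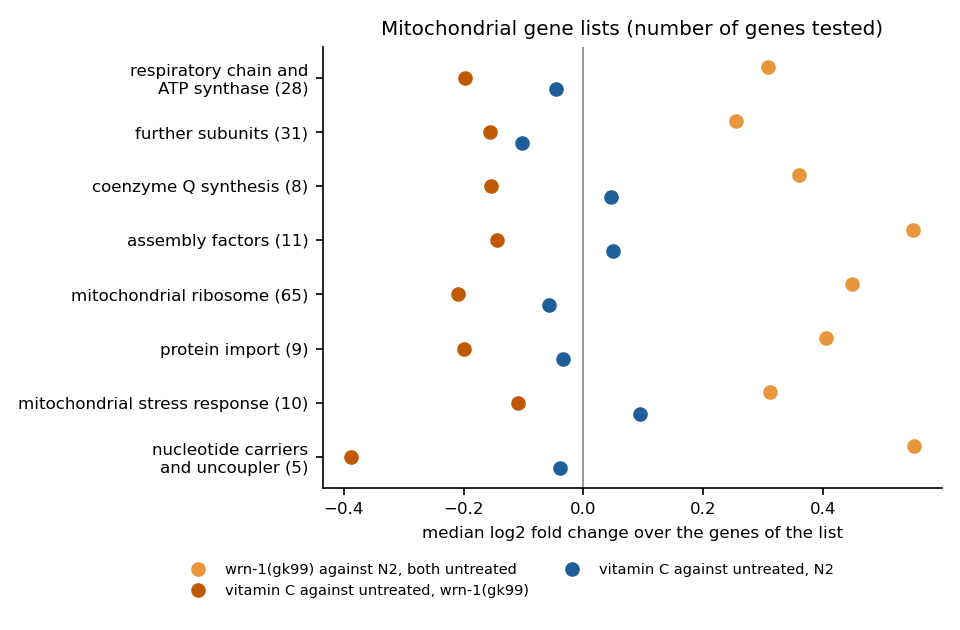
Median log2 fold change (x axis) over the genes of the members and of 7 other mitochondrial lists (y axis, with the number tested), for untreated wrn-1(gk99) against untreated N2, and for vitamin C treated against untreated worms in wrn-1(gk99) and in N2. For these 8 the strain medians run from 0.25 to 0.55 and the vitamin C medians in wrn-1(gk99) from -0.39 to -0.11.

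Markers of several tissues also differed between the groups, and their part in the results above was not tested. Between the untreated strains 20.4% of all genes tested were called higher in wrn-1(gk99) and 23.0% lower. All 8 germline markers were above 0 in untreated wrn-1(gk99) against untreated N2, with 2 called higher and summed levels of 17309 to 17656 in the mutant and 11522 to 11830.0 in N2. Their sum was 15450.0 to 16787 in the treated mutant libraries, and in vitamin C treated N2 it was 8968, 9229 and 15509.9, the last again the library that stood apart. All 4 pharyngeal muscle markers were called higher in untreated wrn-1(gk99), at 11083 to 11856 against 3897 to 4106 in untreated N2, while the treated mutant libraries had 5382 to 7219.8. Of 5 intestine markers 3 were called higher and 1, elt-2, lower, with sums of 34172 to 35138 in untreated wrn-1(gk99) and 18911 to 19783 in untreated N2. Of 6 neuron markers 3 were called lower in untreated wrn-1(gk99), as was 1 of 6 body wall muscle markers, while of 5 hypodermis markers 2 were called higher and 2 lower. Sperm genes of the major sperm protein family were near 0, with 1 of 35 above the minimum and summed levels of 58.7 to 73.4 in untreated wrn-1(gk99) and 87.3 to 139 in untreated N2. No marker of any list but the sperm list was at 0 in all libraries.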

How the data were processed

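The authors aligned 50-base reads to genome build ce10 with TopHat, counted reads per gene with HTSeq and divided them by DESeq size factors (versions and the strand setting of counting are not given in the sources used here). The deposited signal is therefore a normalised count. In every library 100% of nonzero values were whole reads after rescaling (tolerance 0.01), and no column was without a sample. The main test was limma 3.58.1 with a trend, in R 4.3.3, on log2(value + 1) over 14352 genes with a mean of at least 10, in 1 fit of the 4 groups, with Benjamini-Hochberg adjustment. As alternatives, the recovered reads were tested with edgeR 4.0.16, which called 6280 genes in the strain comparison, and with DESeq2 1.42.0, which called 6898, against 6226 by limma. Only the limma fit was also run on simulated counts, drawn with the same spread for every gene and group, unlike these libraries. The edgeR and DESeq2 fits were not run on simulated data. Tables were joined with Python 3.11.15, pandas 2.3.3 and numpy 2.4.6.

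Members and lists were chosen with earlier results of these data known. Every member could be named. Values per library were given for gas-1, isp-1, mev-1, sdha-1, sdhb-1, the paralogs and, in each comparison, the 3 called members with the highest and the 3 with the lowest log2 fold change. Of other lists only some of the called genes at either end were named, and none of the ribosomal list. Further genes, ant-1.1 and atp-1 among them, were chosen after their values were seen. The list named in RefSeq only and the split at 1000 exon bases were also chosen after seeing the data. Exon coordinates of the WBcel235 annotation were used for exon lengths and for overlaps between genes, and sequences were not used here.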

Additional observations from a re-analysis of the deposited data

Results flagged for a closer look

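The response of ucr-2.2, a gene for a core protein of complex III, to vitamin C differed between the strains, with an interaction (wrn-1(gk99) minus N2) of -0.43 on the log2 scale (limma adjusted p = 0.00169). The log2 fold change with vitamin C was -0.34 in wrn-1(gk99) and 0.10 in N2, where it was not called (limma adjusted p = 0.244). In both strains the treated and untreated libraries did not overlap. Leaving out N2 vitC replicate 3 gave an interaction of -0.42. With 3 libraries a group, no check for single outlying values within a group was applied.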

How the results depend on the processing

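For each comparison in turn (strain, vitamin C in wrn-1(gk99), vitamin C in N2, vitamin C treated wrn-1(gk99) against untreated N2, and the interaction) 14, 3, 0, 0 and 1 members were called. Leaving out 1 library gave 7 to 22, 1 to 14, 0 to 5, 0 to 10 and 1 to 6 members, and medians of 0.29 to 0.34, -0.22 to -0.16, -0.179 to -0.0179, 0.11 to 0.15 and -0.189 to -0.0486. The highest count in each was reached without the library labelled N2 vitC replicate 3.

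Fits of only the groups compared called 22 members between the strains, 10 for vitamin C in wrn-1(gk99) and 5 for vitamin C treated wrn-1(gk99) against N2, while calls over all genes were 9201, 3797 and 6243, against 6226, 1476 and 3178 in the fit of all groups. A threshold of 0.05 gave 7 for vitamin C in wrn-1(gk99), 1 for vitamin C in N2, 2 for vitamin C treated wrn-1(gk99) against N2 and 3 for the interaction. Over all 14352 genes tested it gave 2744, 3326, 5838 and 3686 in the same order. DESeq2 called 7, 1 and 2 members for vitamin C in wrn-1(gk99), for vitamin C treated wrn-1(gk99) against N2 and for the interaction. Its calls over all genes were 2219, 4136 and 2862. A minimum mean of 50 gave 5 for vitamin C in wrn-1(gk99) and 2 for the interaction, and 1445 and 2094 over the 11929 genes then tested.

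Scaling to equal totals moved the medians to 0.47 between the strains, 0.0551 for vitamin C in N2, 0.32 for vitamin C treated wrn-1(gk99) against N2 and -0.245 for the interaction. It called 4 members in the treated mutant against N2 and 2 in the interaction, and 3758 and 2127 of all genes. Of all genes called, the share that was higher became 61.4% between the strains (46.9% as deposited), 62.6% for vitamin C in N2 (41.3%), 66.6% for vitamin C treated wrn-1(gk99) against N2 (37.9%) and 51.1% for the interaction (62.3%). Equal totals together with leaving out N2 vitC replicate 3, an alternative chosen after seeing the data, called 26, 14, 3, 20 and 8 members. Over all 14352 genes tested it called 9308, 4020, 5020, 7963 and 4943 in the same order. The members' medians were 0.47 between the strains, -0.12 for vitamin C in N2, 0.32 for the treated mutant against N2 and -0.0915 for the interaction. The cause of these differences was not tested.

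With the replicate number as a block, 14, 3, 0, 0 and 1 members were called. The numbers were not treated as pairing, since in 18 pairs of same-numbered libraries the deviations correlated at -0.0813 to 0.165, with 5 pairs above 0.1. For single members 3416 alternative values stayed on the same side of the threshold, 147 passed it and 49 no longer did. The 3416 include values not called in either fit whose sign changed, such as isp-1 for vitamin C in N2 (-0.14 to 0.10). Of the values called in either fit, 0 changed sign.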
